A study of Caenorhabditis elegans with 6 samples.

Results

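The miRNA genes mir-357 (cel-mir-357 in the files) and mir-358 (cel-mir-358) of Caenorhabditis elegans are neighbours on chromosome V, and their abundance in male and hermaphrodite gonads is described here as the 2 members of this pair among 253 miRNA genes counted. They were taken by name and were chosen by their read counts in male against hermaphrodite gonads in these same libraries, so the values of that contrast are a description and carry no test. Small RNA was sequenced from gonads of adult N2 males and of adult N2 hermaphrodites, with 3 libraries per sex. N2 is the wild-type laboratory strain. Sperm are made in the male gonad, whereas the gonad of the adult hermaphrodite has switched from making sperm as a larva to making oocytes. The labels give sex as the only difference between the groups; the number of animals per library and their exact age are not given in the sources used here. Per the series' design, the comparison asked which miRNAs are more abundant in the male gonad.

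A miRNA is cut from a hairpin in a longer primary transcript, loaded into an Argonaute protein, and pairs with messenger RNAs mainly through the short seed near its 5′ end, which usually lowers the output of the paired message. Hairpins that lie close together on one strand are often cut from a shared primary transcript, and the mature miRNAs can still reach different levels because cutting, loading and decay act on each hairpin separately. Germ cells of C. elegans use miRNAs alongside other small RNA pathways, and the best known germline miRNAs of this species are those of the mir-35 family in oocytes and embryos.

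In the WBcel235 annotation both genes lie on the minus strand of chromosome V, with starts 316 bases apart and 206 bases between them. In the direction of transcription mir-358 comes first and mir-357 second. Both sit in intronic sequence of symk-1, which encodes the worm symplekin, a scaffold of the machinery that forms messenger RNA 3′ ends. That gene runs on the plus strand, so both miRNAs are antisense to it, and no exon of symk-1 overlaps either. Each miRNA gene is annotated at 110 bases with mature products from both arms of the hairpin, of 22 and 22 bases for mir-357 and 22 and 23 bases for mir-358. The counts are per hairpin and do not separate the arms. No other annotated miRNA gene is close by: the nearest on chromosome V, mir-256, starts 1625 kb away.

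The male libraries held between 245399 and 597166 miRNA counts and the hermaphrodite libraries between 2268159 and 2621478, so depth and sex cannot be told apart. Male replicate 3 was the smallest library. Of 124 miRNAs tested, 19 were at least 2-fold higher there than in the mean of male replicates 1 and 2. A further 33 were at 0.5 times that mean or below. The same count was not made for male replicates 1 and 2, so how far male replicate 3 stands out is not shown. Differences, ratios, list counts and likenesses are given with and without it. The oocyte and embryo family mir-35 to mir-42 summed to between 390 and 449 scaled CPM in male libraries and between 202495 and 343606 scaled CPM in hermaphrodite libraries. Scaled CPM are read counts scaled to a common library size (CPM), with that size corrected by trimmed mean of M values (TMM). In bulk gonads, fewer cells of a type and less RNA per cell cannot be told apart.

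The member with more reads, mir-357, had 62, 34 and 61 reads in male replicates 1 to 3, against 28, 17 and 30 reads in hermaphrodite replicates 1 to 3. Because the male libraries were much smaller, these reads correspond to 72.8, 47.6 and 203 scaled CPM in male gonads and to 15.2, 13.0 and 14.8 scaled CPM in hermaphrodite gonads. Every male library lay above every hermaphrodite library, and male replicate 3 lay well above the other male libraries while the hermaphrodite libraries were close together. The mean level was 108 ± 83.5 scaled CPM in male gonads and 14.3 ± 1.18 scaled CPM in hermaphrodite gonads (SD, n = 3 each). Without male replicate 3 the male mean was 60.2 scaled CPM.

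Its neighbour mir-358 had fewer reads. It had 23, 10 and 14 reads in male replicates 1 to 3, against 5, 10 and 7 reads in hermaphrodite replicates 1 to 3. On the scaled CPM scale these were 27.0, 14.0 and 46.6 in male gonads and 2.71, 7.62 and 3.45 in hermaphrodite gonads. The groups did not overlap, although male replicate 2 and hermaphrodite replicate 2, at 10 reads each, were the closest of the libraries. With so few reads the 95% exact Poisson intervals of these 2 libraries, from 6.71 to 25.7 scaled CPM in the male and from 3.66 to 14.0 scaled CPM in the hermaphrodite library, did overlap. Such intervals cover counting error only, since PCR duplicates may be among the reads. The mean was 29.2 ± 16.4 scaled CPM in male gonads and 4.59 ± 2.65 scaled CPM in hermaphrodite gonads (SD, n = 3 each), and the male mean was 20.5 scaled CPM without male replicate 3.

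**Figure D1:**
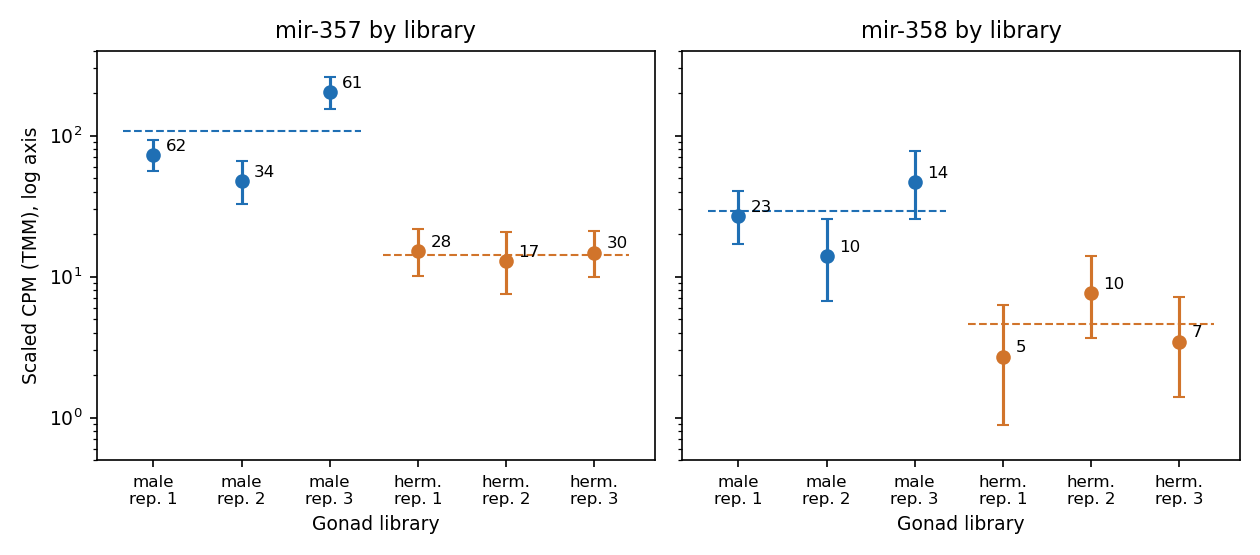
Scaled CPM on a log axis for mir-357 (left) and mir-358 (right) in each gonad library, male libraries in blue and hermaphrodite libraries in orange, with 95% exact Poisson intervals as bars, read counts as numbers beside the points and the mean of each sex as a dashed line. All 3 male points lie above all 3 hermaphrodite points in both panels, and male replicate 3 is the highest library in both.

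Non-overlap of this kind was common in these libraries. Of the 124 miRNAs that passed the filter on low counts, 48 (38.7%) had every male library above every hermaphrodite library in scaled CPM, and both members of the pair were among them. The filter asked for 6.98 CPM in 3 or more libraries. All 6 libraries passed this level for mir-357, the lowest being hermaphrodite replicate 2 at 7.26 CPM. Only the male libraries passed it for mir-358, which stood at 1.91, 4.27 and 3.09 CPM in hermaphrodite replicates 1 to 3, so its entry into the fit depended on the sex in which it was higher. How many of the other tested miRNAs entered through the libraries of 1 sex was not counted.

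In order of mean level, male mir-357 came first, followed by male mir-358, hermaphrodite mir-357 and hermaphrodite mir-358. The mature products are of nearly the same length, so no length correction was made when counts were compared between the genes. How efficiently each sequence was captured in the libraries was not measured, so this is an order of reads. The lowest male value of mir-357, 47.6 scaled CPM, was just above the highest male value of mir-358, 46.6 scaled CPM, and mir-357 was the higher in each male library. Male mir-358, from 14.0 to 46.6 scaled CPM, overlapped hermaphrodite mir-357, from 13.0 to 15.2 scaled CPM, so these neighbours in the order did not differ beyond their spread. Neither miRNA was abundant. By read count mir-357 ranked 76, 81 and 55 among the 253 miRNAs in male replicates 1 to 3 and 94, 95 and 89 in hermaphrodite replicates 1 to 3. The ranks of mir-358 were 100, 109 and 85 in the male libraries and 128, 109 and 119 in the hermaphrodite libraries.

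In a fit across all 124 tested miRNAs with edgeR's quasi-likelihood model, the log2 fold change of male over hermaphrodite gonads was 2.86 (SE 0.59) for mir-357 and 2.62 (SE 0.63) for mir-358. On the linear scale these are 7.27-fold and 6.13-fold, whereas the median over the whole set of tested miRNAs was 0.15 on the log2 scale. At an adjusted p under 0.05, 38 of the 124 miRNAs (30.6%) were higher in male gonads and 31 (25.0%) were lower. Both members were among the 38, at places 21 and 23 by size of the log2 fold change, and since this contrast chose them nothing is read from that. The split of 38 higher and 31 lower became 69 and 20 under library totals and 28 and 36 with TMM computed without mir-35 to mir-42. Both members stayed higher in male gonads under all 5 scalings.

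The size of both differences depended on male replicate 3 and on the scaling. Without that library the log2 fold change was 1.71 (SE 0.32) for mir-357 and 1.91 (SE 0.52) for mir-358. In male replicate 3 mir-357 stood 3.37-fold above the mean of male replicates 1 and 2, and mir-358 stood 2.27-fold above it, both in scaled CPM. Of the 124 tested miRNAs, 19 (15.3%) were at least 2-fold higher in male replicate 3 than in the mean of the other male libraries, while 33 were at 0.5 times that mean or below. The pair held places 10 and 16 from the top of that order. The median of this ratio over all tested miRNAs was 0.937. In raw reads mir-357 was nearly equal in male replicates 1 and 3, at 62 and 61, in libraries of 597166 and 245399 counts, so the excess appears once the library size is taken into account.

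Levels of some somatic miRNAs also differed between the sexes, in both directions, and in male replicate 3. The 6 somatic markers summed to between 10615 and 16621 scaled CPM in male gonads and between 6061 and 8273 scaled CPM in hermaphrodite gonads. Of these 6, 4 were tested, 2 were called higher in male gonads, 1 was called lower and 1 was not called (edgeR's quasi-likelihood test, adjusted p under 0.05), where 30.6% of all tested miRNAs were called higher and 25.0% lower. Without male replicate 3 the counts among the markers were 3 higher and 1 lower, where 43 and 44 of 132 tested miRNAs were called. With TMM computed without mir-35 to mir-42 they were 0 and 1, where 28 and 36 of 124 were called. The glial and hypodermal mir-228 made up most of the sum. It stood at 8246, 8675 and 16048 scaled CPM in male replicates 1 to 3, and at 5197, 5201 and 3762 scaled CPM in hermaphrodite replicates 1 to 3. The muscle miRNA mir-1 and the intestinal miRNA mir-60 went the other way in male replicate 3, at 333 and 220 scaled CPM, against 1242 and 1452 in male replicate 1 and 965 and 943 in male replicate 2. In hermaphrodite replicates 1 to 3 mir-1 stood at 1359, 2520 and 1804 scaled CPM, and mir-60 at 351, 540 and 485. The neuronal lsy-6 was at 6.66 scaled CPM in male replicate 3, below 9.39 and 28.0 in male replicates 1 and 2, and mir-791 was at 13.3 against 7.04 and 1.40 scaled CPM. Only the male libraries reached the filter level of 6.98 CPM for lsy-6, 1 of the 2 markers called higher. The neuronal mir-124 had no read in male replicate 3 and no more than 2.96 scaled CPM in any library. The part of these somatic levels in the values of mir-357 and mir-358 was not tested.

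The ratio of the members within a library does not depend on how libraries are scaled. In male replicates 1 to 3 there were 2.70, 3.40 and 4.36 reads of mir-357 for each read of mir-358, against 5.60, 1.70 and 4.29 in hermaphrodite replicates 1 to 3. In every library mir-357 had more reads than mir-358, and the male ratios lay inside the range of the hermaphrodite ratios. The log2 ratio averaged 1.77 ± 0.35 in male gonads and 1.78 ± 0.90 in hermaphrodite gonads (SD, n = 3 each), a male minus hermaphrodite difference of -0.01. The SDs are the spread of single libraries, not of this difference. The wider spread in hermaphrodite gonads came with fewer reads, from 27 to 37 for the pair per library, against 44 to 85 in male gonads.

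Reads summed over the libraries of each sex gave similar ratios. There were 157 reads of mir-357 and 47 of mir-358 in male gonads, a ratio of 3.34, and 75 and 22 reads in hermaphrodite gonads, a ratio of 3.41. The male ratio was 0.980 times the hermaphrodite ratio, with a 95% exact conditional interval from 0.522 to 1.80 that covers counting error only. It leaves out the spread between libraries, where the log2 ratio had an SD of 0.35 in male and 0.90 in hermaphrodite gonads. Shifts in the ratio larger than the ends of the interval could therefore also have gone undetected. The difference in mean log2 ratio was -0.52 without hermaphrodite replicate 2, the library with the lowest ratio, and 0.34 without hermaphrodite replicate 1, the library with the highest. Without male replicate 3 it was -0.19.

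**Figure D2:**
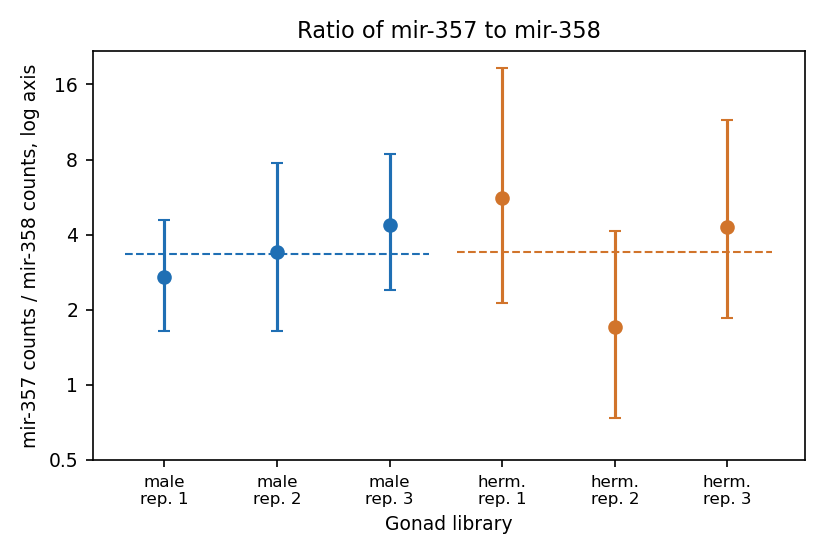
Reads of mir-357 divided by reads of mir-358 in each library, on a log axis, with 95% intervals derived from exact Clopper-Pearson intervals of the share of mir-357 in the pair and, as dashed lines, the ratio of summed reads per sex (3.34 in male and 3.41 in hermaphrodite gonads). The intervals of all 6 libraries overlap, and the widest belongs to hermaphrodite replicate 1, with 28 reads of mir-357 and 5 of mir-358.

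Other neighbouring miRNA genes give a scale for this ratio. The annotation holds 49 pairs of adjacent miRNA genes on one strand whose starts are at most 10 kb apart, and 12 of them, besides mir-357 and mir-358, had 10 or more reads of both genes in every library. The pair described here did not reach that depth itself, its lowest count being 5. In the 12 other pairs the absolute difference between the sexes in mean log2 ratio ran from 0.10 to 3.43, with a median of 0.55, and 3 of them exceeded 1. All 12 were larger than the difference of 0.01 in size for mir-357 and mir-358. Both members of this pair were chosen with the male against hermaphrodite contrast known, which favours a small difference in their ratio. The 12 other pairs were taken by distance and read depth, so nothing is read from the order. The 12 pairs hold 20 genes, some of them in more than 1 pair, so they are not independent. Without male replicate 3 the difference for mir-357 and mir-358 was 0.19 in size, and 3 of the 12 other pairs had a smaller one, within a range of 0.003 to 3.53. No test was made of where the pair stands among them, and its hermaphrodite SD of 0.90 was larger than that of any of the 12, whose median hermaphrodite SD was 0.08.

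The steadiest of the other pairs over the 6 libraries were mir-64 with mir-65 on chromosome III and mir-48 with mir-241 on chromosome V. Their log2 ratios had an SD over 6 libraries of 0.17 and 0.22, against 0.61 for mir-357 with mir-358. The least steady were mir-74 with mir-75 on the X chromosome, at an SD of 1.89, and mir-795 with mir-794 on chromosome I, at an SD of 0.85. For mir-74 with mir-75 the male minus hermaphrodite difference was -3.43. For mir-795 with mir-794 it was 0.58 with a male SD of 1.23, and without male replicate 3 it was -0.12 with an SD over 5 libraries of 0.17. For mir-357 with mir-358 the SD over those 5 libraries was 0.66.

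**Figure D3:**
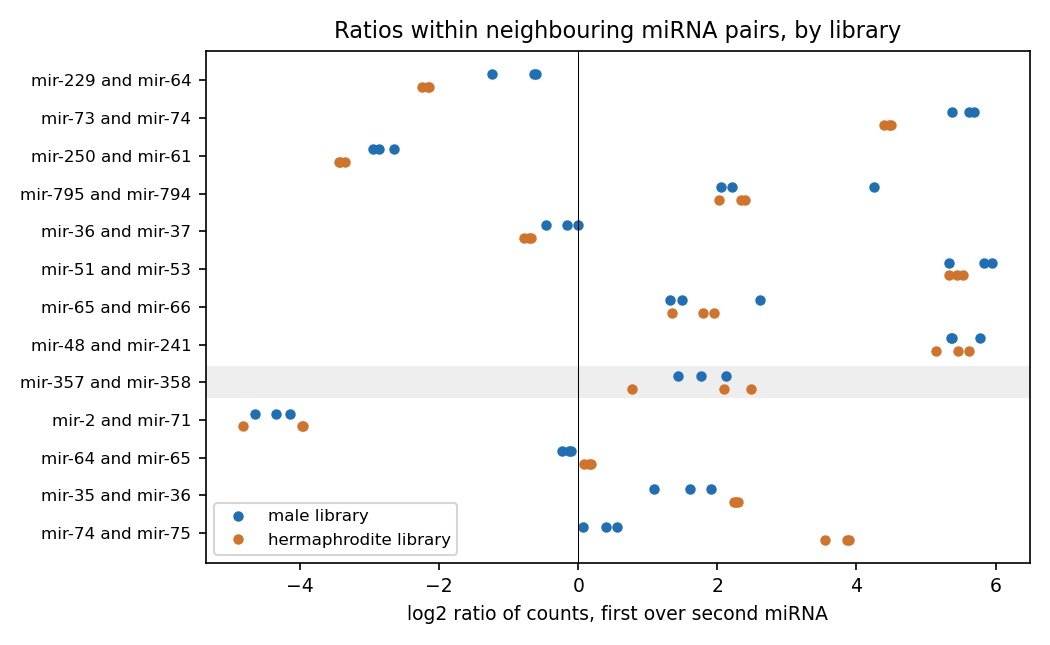
Log2 ratio of read counts, first over second miRNA, in neighbouring miRNA pairs, with male libraries in blue above hermaphrodite libraries in orange and the row of mir-357 and mir-358 shaded. In the shaded row the male points lie within the range of the hermaphrodite points, whereas for mir-74 and mir-75 the sexes are 3.43 apart in mean log2 ratio.

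The miRNAs whose pattern over the 6 libraries was most like that of the pair were found by the root mean square distance between log2 scaled CPM profiles, each centred on its own mean. The closest to mir-357 among 123 other tested miRNAs was mir-49, at a distance of 0.32, followed by mir-1819 at 0.36, mir-235 at 0.40, mir-2210 at 0.47 and mir-358 at 0.52. The closest to mir-358 was again mir-49, at 0.31, followed by mir-235 at 0.47, mir-357 at 0.52, mir-796 at 0.55 and mir-2210 at 0.57. The median distance was 1.67 for mir-357 and 1.59 for mir-358. Each member was therefore among the 5 nearest of the other, but neither was the nearest. This order rested on male replicate 3. Over the other 5 libraries the nearest to mir-357 was mir-239a, at 0.30, and the nearest to mir-358 was mir-83, at 0.21. Only 1 of the 5 nearest to mir-357 and 3 of the 5 nearest to mir-358 were then still among the first 5, and mir-358 was at place 16 for mir-357 while mir-357 was at place 12 for mir-358. The miRNA mir-49 was among the first 5 of both members with and without that library. These 6 points share their libraries and fall into 2 sexes. The contrast between the sexes chose both members, which favours their nearness to each other, so the distance is a description.

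Most of the profiles nearest over 6 libraries were high in male replicate 3, as their selection by distance from the pair favours. There mir-49 stood 3.61-fold above the mean of male replicates 1 and 2, mir-1819 stood 2.29-fold above it, mir-2210 stood 3.66-fold above it and mir-235, the worm relative of the miR-92 family, stood 4.78-fold above it. The exception was mir-796, at 0.857 times that mean. Levels differed widely among them. In male replicates 1 to 3 mir-49 had 45.8, 33.6 and 143 scaled CPM, close to the levels of mir-357, against 8.12, 13.7 and 7.90 scaled CPM in hermaphrodite replicates 1 to 3. In male replicates 1 to 3 mir-235 had 51457, 42162 and 223837 scaled CPM, against 15357, 23008 and 13463 scaled CPM in hermaphrodite replicates 1 to 3.

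**Figure D4:**
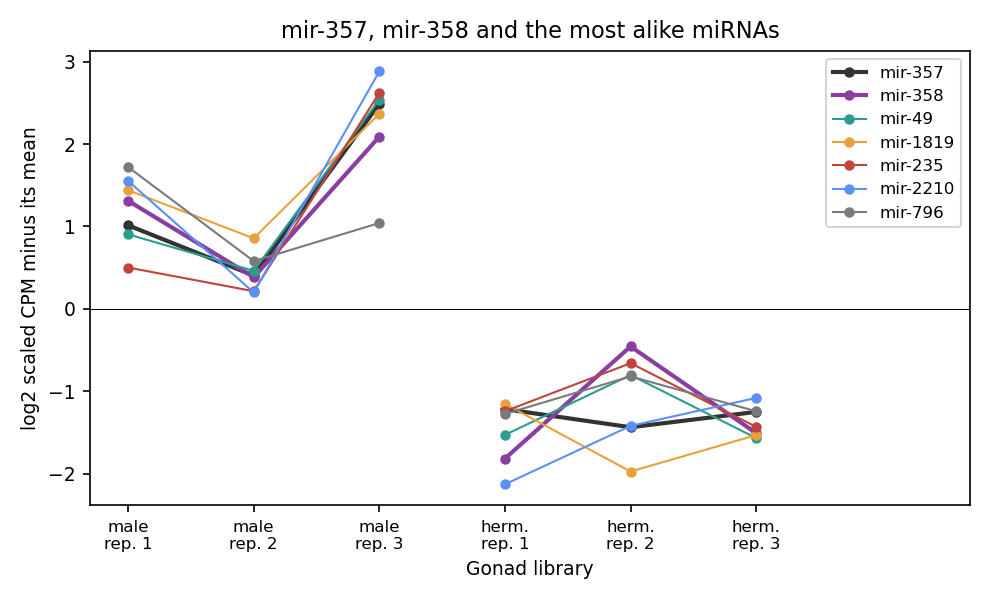
Log2 scaled CPM minus its mean over the 6 libraries for mir-357 and mir-358 (thick lines) and for the miRNAs closest to either (thin lines), male libraries on the left and hermaphrodite libraries on the right, with lines joining replicates of one sex only to guide the eye. All profiles are above 0 in male and below 0 in hermaphrodite libraries, and all but mir-796 are highest in male replicate 3.

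The pair was also set beside the other miRNAs of chromosome V. Of 24 others annotated there, 10 were tested, and 2 were called higher in male gonads, 2 lower and 6 neither (edgeR's quasi-likelihood test, adjusted p under 0.05), where 30.6% of all tested miRNAs were called higher and 25.0% lower. Their median log2 fold change was 0.16, against 0.15 over all tested miRNAs. The 2 called higher were mir-1821, with 13, 15 and 14 reads in hermaphrodite replicates 1 to 3, and lsy-6, with 12, 7 and 9. Both stayed below the filter level of 6.98 CPM in every hermaphrodite library, so their entry into the fit depended on the male libraries. The numbers called higher and lower were 6 and 0 under library totals, where 69 and 20 of all 124 were called. They were 1 and 3 with TMM computed without mir-35 to mir-42, where 28 and 36 of all 124 were called. Without male replicate 3 they were 2 and 3, where 43 and 44 of 132 tested miRNAs were called. The most abundant of these miRNAs were mir-61, mir-48 and mir-250, with log2 fold changes of -0.83 (SE 0.34), 0.78 (SE 0.36) and -0.28 (SE 0.38). They are given for their abundance. Their sizes are not compared with those of the pair, which this contrast chose.

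By position, both members belong to the miRNAs that lie inside a protein-coding gene on its opposite strand. Of 30 other such miRNAs, 16 were tested, and 1 was called higher in male gonads while 9 were called lower, with a median log2 fold change of -1.44. Of the 9, 6 belong to the mir-35 family. Among these, mir-38 had 0, 0 and 2 reads in male replicates 1 to 3, and mir-40 had 2, 1 and 1. Their entry into the fit depended on the hermaphrodite libraries. The 1 called higher was mir-789-2, at a log2 fold change of 6.04 (SE 1.73). Under library totals the counts became 3 higher and 8 lower, where 69 and 20 of all 124 were called. Without male replicate 3 they became 3 higher and 12 lower, where 43 and 44 of 132 tested miRNAs were called. Among all tested miRNAs the share called higher was 30.6% and the share called lower was 25.0% with TMM and all 6 libraries.

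A list of 10 other miRNAs was recalled as candidates for male gonads, was not checked against a publication and is not independent of these libraries. Of the 10, 9 were called higher and 0 lower in the same edgeR test. Of all tested miRNAs, 30.6% were called higher and 25.0% lower. The filter level of 6.98 CPM was not reached in all hermaphrodite libraries by mir-261, mir-4808, mir-4809, mir-4810a and mir-49. Their entry into the fit therefore depended on the male libraries, where they were higher. Without male replicate 3 the counts for the list were again 9 and 0, where 43 and 44 of 132 tested miRNAs were called. The 1 remaining, mir-58a, had a log2 fold change of 0.07 (SE 0.36), and under library totals it too was called higher, as were 69 of all 124 miRNAs. The list's median log2 fold change was 3.51. It is not compared with the values of the pair, which this contrast chose. The members of the list were not alike in male replicate 3: mir-235 and mir-49 were high there, as the pair was, whereas the X-linked mir-4807 stood at 0.853 times the mean of male replicates 1 and 2 and the X-linked mir-4808 at 0.416 times.

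The deposited normalized values are the same counts divided by 1 size factor per library, so they are not a second measurement. On this scale too, every male library lay above every hermaphrodite library for both members. In these values mir-357 stood at 55.2, 42.2 and 192 in male replicates 1 to 3 and at 16.1, 12.7 and 18.9 in hermaphrodite replicates 1 to 3. For mir-358 they were 20.5, 12.4 and 44.1 in male and 2.87, 7.44 and 4.41 in hermaphrodite gonads. Neither miRNA overlapped between the sexes on this scale, and the lowest male value was 2.23 times the highest hermaphrodite value for mir-357 and 1.67 times for mir-358. The share of all tested miRNAs with every male library above every hermaphrodite library was not counted on this scale. In scaled CPM it was 38.7% (48 of 124). The ratios of means, male over hermaphrodite, were 6.08 for mir-357 and 5.23 for mir-358, and 3.07 and 3.35 without male replicate 3. Over all alternatives to the fit described above, the log2 fold change ran from 1.71 to 3.75 for mir-357 and from 1.91 to 3.61 for mir-358. The lowest values came without male replicate 3 and the highest under library totals, which raised the median of all tested miRNAs by 1.03. Relative to that median the log2 fold changes under library totals were 2.57 and 2.43, against 2.71 and 2.47 with TMM.

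**Figure D5:**
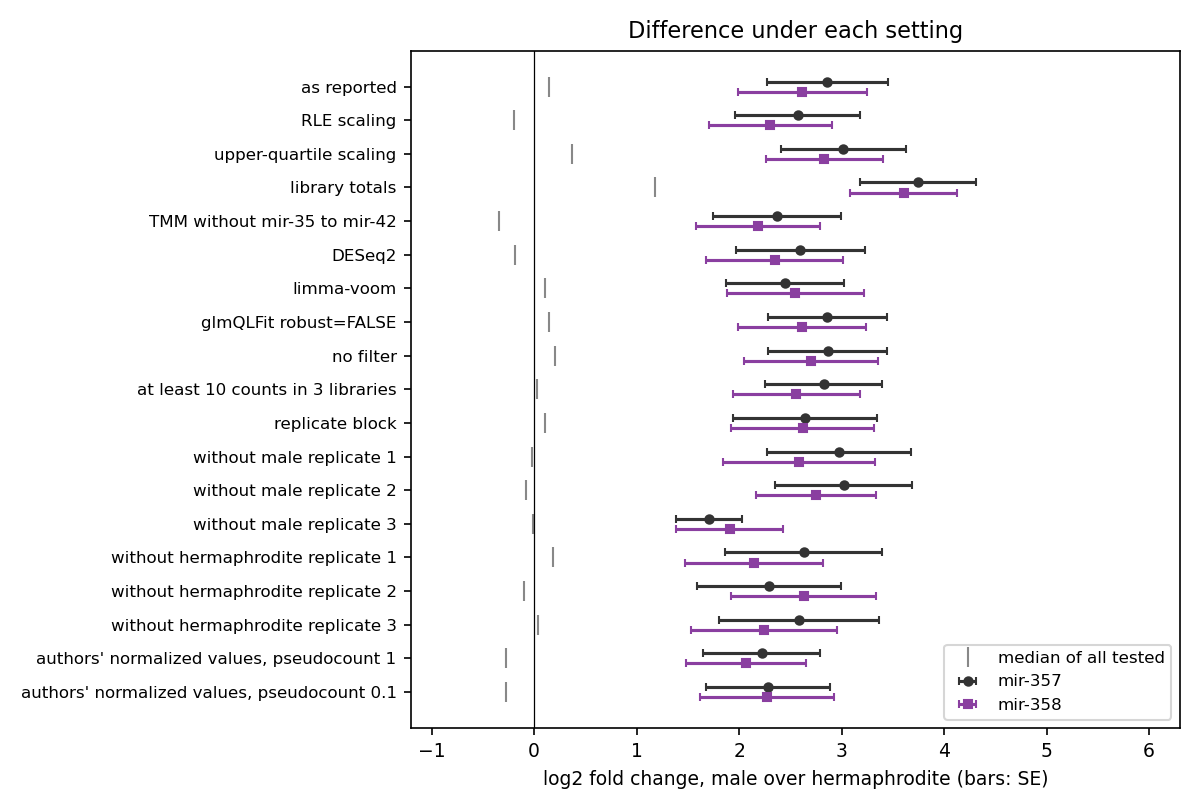
Log2 fold change, male over hermaphrodite gonads, of mir-357 (circles) and mir-358 (squares) with SE bars under each setting, and the median over all tested miRNAs as a grey tick. Both miRNAs lie above the median of all tested miRNAs in every setting, and both are lowest without male replicate 3, at 1.71 and 1.91.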

How the data were processed

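Small RNA libraries were made with the TruSeq Small RNA kit from total RNA, per the labels' protocols. The authors deposited whole-number read counts for 253 miRNA genes per library and a table of normalized values, used here as a signal. The submitters' processing notes name Bowtie2, HTSeq and DESeq2, without versions or roles. The build (ce10) and miRBase release (22) appear only in file and column names. Trimming and the treatment of reads matching several miRNAs are not given in the sources used here. Counts divided by the deposited normalized signal gave 1 size factor per library, from 0.317 to 1.74.

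Groups and replicate numbers came from sample titles. The labels do not say whether replicates came from separate cultures. edgeR 4.0.16 (R 4.3.3) compared the sexes on the deposited counts with filterByExpr (minimum count 10), TMM and a robust quasi-likelihood F-test, with Benjamini-Hochberg adjustment over 124 miRNAs and sex as the only term. Log2 fold changes are male over hermaphrodite. SEs were derived from the log2 fold change and the F statistic. Intervals used scipy 1.17.1. Likeness used log2 scaled CPM with a prior count of 0.5. The fit was tested on 20 simulated sets of 124 miRNAs with 30 changed by 2 on the log2 scale in either direction, at 1 common dispersion. It recovered 92% of changes, and 3.83% of calls were false. These sets held no shifts as large as those of mir-35 to mir-42, so they did not test the scaling of these libraries. Positions came from Ensembl release 115 (WBcel235), matched by name for 250 of 253 miRNAs. Its build differs from ce10, so no coordinates are given.

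The members and lists were chosen with earlier results of these data known. Besides mir-357 and mir-358, the miRNAs named are the 5 nearest profiles of each, the 2 most and 2 least steady neighbouring pairs, the 3 most abundant on chromosome V and the markers. mir-256, mir-239a, mir-83, mir-789-2, mir-1821, mir-58a and the other members of the candidate list were named after their values were seen. Alternatives were other scalings, DESeq2 1.42.0, limma-voom (limma 3.58.1), other filters, glmQLFit without robust settings, a replicate block, each library left out, limma-trend on the deposited values and an adjusted p under 0.01.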

Additional observations from a re-analysis of the deposited data

How the results depend on the processing

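The log2 fold changes of both members stayed positive in all 18 alternatives, which says nothing independent since this contrast chose them. The number of miRNAs higher in male gonads was 38, moved to 69 under library totals and ran from 23 to 43 when 1 library was left out. The lowest came without hermaphrodite replicate 3, and it was 24 without hermaphrodite replicate 2. The number lower in male gonads was 31, moved to 20 under library totals and ran from 26 to 44 when 1 library was left out. The cause of these shifts was not tested. The difference in log2 ratio of mir-357 to mir-358 ran from -0.52 to 0.34 over its 9 alternatives, against the reported -0.01. Both ends came when 1 hermaphrodite library was left out, so the value depends on which libraries are used. List counts, neighbouring pairs and likeness without male replicate 3 were added after the data were seen. Replicate numbers were not used to pair libraries: deviations of same-numbered libraries from their group means correlated at -0.13, -0.02 and -0.25 over 124 miRNAs, and no male library correlated best with its own number. With the replicate block the log2 fold changes were 2.64 for mir-357 and 2.62 for mir-358, with 31 miRNAs called higher and 27 lower. At 5 to 10 reads of mir-358 per hermaphrodite library, depth limits the precision of its level and of the ratio.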
